A study of Mus musculus and synthetic RNA with 74 samples.

Results

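The PRPF proteins are spliceosome proteins whose genes carry the name of pre-mRNA processing factors first found in yeast. The 9 genes described here, Prpf3, Prpf4, Prpf6, Prpf8, Prpf18, Prpf19, Prpf31, Prpf38b and Prpf39, were taken by their symbols. All 9 are listed among the 20330 genes of the E2.5 table and the 21199 genes of the E3.5 table. With 1 RefSeq transcript per gene, the one with the longest summed exons, they have 153 of the 212043 exons and 144 of the 187662 introns listed. Their symbols were not picked by measured values, but the list was made with earlier results of these data known.

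The spliceosome is assembled on each intron from small nuclear RNAs, the snRNAs, and their proteins. U1 recognizes the 5′ splice site first, and the tri-snRNP of U4, U6 and U5 then joins, after which U6 replaces U1 at the 5′ splice site and forms part of the catalytic centre. PRPF3 and PRPF4 sit together on the U4/U6 snRNP, PRPF31 binds the U4 snRNA and helps to hold U4/U6 to U5, and PRPF6 bridges both particles. PRPF8 is the large scaffold of U5 around the catalytic centre. PRPF18 acts in the second step of splicing and PRPF19 is the ubiquitin ligase of the complex named after it, so that neither is a core protein of the tri-snRNP or of U1. PRPF38B is related to the tri-snRNP protein PRPF38A, and PRPF39 works with U1. The link to the study is U6: METTL16, the N6-methyladenosine (m6A) methyltransferase under study, methylates an adenosine of U6 in the stretch that pairs with the 5′ splice site, and its other known target is the mRNA of the S-adenosylmethionine synthetase Mat2a.

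The embryos came from crosses of Mettl16 heterozygous mice of a single line, made in B6D2F1/J and bred with C57BL/6JRj, whose mutant allele holds a cassette of stop codons in exon 3. At E2.5, the morula, there were 5 WT, 14 HET and 12 KO embryos, and at E3.5, the blastocyst, 18 WT, 9 HET and 12 KO embryos. The mothers were superovulated, the genotype of each embryo was read from its own Mettl16 reads, and the lineages of an embryo were not separated. Polyadenylated RNA of each whole embryo was amplified by Smart-seq2, which keeps no strand. The second experiment was a methylation reaction of human METTL16 with randomized 30-nt RNAs around a fixed nonamer, read as 2 input and 2 m6A immunoprecipitation (m6A-IP) libraries from the reactions numbered 11 and 12.

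Each embryo value below is the authors' mean of a normalized count over all embryos of a stage, the 3 genotypes together. It therefore has no SD, and no comparison of genotypes was made for these genes. The stages were normalized separately and differ in the mix of genotypes, so a value at E2.5 and a value at E3.5 stand side by side without a test. Depth per embryo is not part of these values. In such bulk samples fewer cells of a kind and less RNA per cell cannot be told apart. As a check of stage, 4 of 5 trophectoderm markers stood higher at E3.5, among them the keratin Krt18 with 952 and 25123 per kb, while Tfap2c stood at 1860 and 651. Of 3 pluripotency genes, Nanog and Sox2 stood higher at E3.5 and Pou5f1 lower, with 6664 and 2607, and 3 of 4 primitive endoderm markers stood higher, with Gata4 at 372 and 74.2. Of 4 markers of cells outside the embryo, Ptprc, Col1a1 and Amh stood at 1.58 per kb or less, while the globin gene Hba-a1 stood at 88.7 and 21.4, and the part of such cells in the values of the 9 genes was not tested. The targeted gene Mettl16 had a mean of 778 at E2.5 and 669 at E3.5 over all genotypes. It lies 0.668 Mb from Prpf8 on chromosome 11, so that in any comparison of genotypes Prpf8 would be linked to the mutated locus.

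Sequences of 2 kinds carry the results and are shown first. The first kind is the nonamer of the randomized RNAs, which occurs 6 times on the transcribed strand of 4 of the 9 genes. Each site is given as the 30-nt RNA window that places the nonamer, in capitals, at positions 12 to 20 as in the in vitro RNAs, so that the adenosine that can be methylated is at position 15.
Prpf3 site 1: augaauaaaacUACAGAGAAaggugacagc
Prpf3 site 2: aaacagugcccUACAGAGAAcauggcucgu
Prpf4 site 1: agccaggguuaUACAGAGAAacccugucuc
Prpf6 site 1: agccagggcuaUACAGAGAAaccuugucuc
Prpf6 site 2: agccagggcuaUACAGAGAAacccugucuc
Prpf18 site 1: cauccaggauaUACAGAGAAacccuguuuu

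The second kind is the splice sites around the introns of Prpf39 and Prpf4 that held the most signal relative to exons, and those of the annotated exons that lie inside the Prpf39 introns. The 5′ site is written as the last 3 bases before and the first 6 bases after the exon end, the 3′ site as 20 bases before and 3 bases into the next exon, and capitals mark the first and the last bases of the intron.
Prpf39 intron 3, 5′ site: gagGTgcgt
Prpf39 intron 3, 3′ site: gtttattgttttcttcttAGgtt
Prpf39 intron 3, inner exon of 69 nt, 3′ site: ttttctctctttgttggcAGgtg
Prpf39 intron 3, inner exon of 69 nt, 5′ site: caaGTaggg
Prpf39 intron 3, inner exon of 163 nt, 3′ site: cttattgcatttttggtcAGacg
Prpf39 intron 3, inner exon of 163 nt, 5′ site: atgGTaatg
Prpf39 intron 8, 5′ site: aagGTaaga
Prpf39 intron 8, 3′ site: ttcctgttttttgtatgtAGtat
Prpf39 intron 8, inner exon of 100 nt, 3′ site: aactatatctgttgcattAGgag
Prpf39 intron 8, inner exon of 100 nt, 5′ site: aagGTgctg
Prpf4 intron 11, 5′ site: tggGTaaga
Prpf4 intron 11, 3′ site: tacagatgttatctcctcAGggg

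The level of each gene was its Salmon mean divided by the exon length of its transcript, and genes were ranked on this scale within a stage. At E2.5 the 9 genes spanned 26.7 to 725 per kb with a median of 474, against a median of 14.7 over the 19988 genes ranked. At E3.5 they spanned 26.5 to 811 with a median of 413, against 21.6 over 20838 genes. The median member stood at percentile 85.7 at E2.5 and 82.9 at E3.5. Prpf19 was far below the rest at both stages. With 1 mean per stage, whether neighbours in these orders differ beyond the spread between embryos cannot be told.

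Prpf3 was the first of the 9 at E2.5. It lies on chr3:95830622-95855753, minus strand, with 16 exons, and its mean was 1982 at E2.5 and 1129 at E3.5, or 725 and 413 per kb. Its percentile was 88.9 at E2.5 and 82.9 at E3.5. Its partner Prpf4, on chr4:62408783-62426990, plus strand, with 14 exons, had lower levels, with means of 1027 and 1379, or 196 and 263 per kb. Its percentile was nearly the same at both stages, 77.4 and 77.9. Prpf31, on chr7:3629985-3642485, plus strand, with 14 exons, had means of 1738 and 1472, which are 553 and 468 per kb. The 3 genes of U4/U6 proteins thus differed 3.7-fold per kb at E2.5 between the highest and the lowest and 1.78-fold at E3.5. The terminal exon of Prpf4, of 3773 nt, makes up 72.0% of its exon length, and on summed exon means without terminal exons the same ratios were 2.52 and 2.97. On that scale Prpf31 at 2315 per kb and Prpf18 at 2257 stood above Prpf3 at 1782 at E2.5.

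Prpf6, the bridge to U5, lies on chr2:181601319-181655661, plus strand, with 21 exons. Its mean was 1845 at E2.5 and 1377 at E3.5, or 604 and 451 per kb, the second highest of the 9 at E2.5 and the fourth at E3.5. Prpf8, on chr11:75486777-75509447, plus strand, has 42 exons and the largest mean of the 9 at both stages, 3546 and 6068. Per kb it was 474 at E2.5, in the middle of the 9, and 811 at E3.5, the highest, at percentile 89.0, although on summed exon means without terminal exons it stood at 960 below Prpf31 at 998. Prpf8 and Prpf38b stood below Prpf3 and Prpf18 at E2.5 and above both at E3.5, as they also did without terminal exons. In summed exon means with terminal exons kept, this order did not hold. Prpf8 at 1041 per kb then stood above Prpf18 at 1025 at E2.5, and Prpf38b at 630 stood below Prpf3 at 647 at E3.5.

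Prpf18, the factor of the second step, lies on chr2:4622167-4652086, minus strand, with 10 exons. Its mean was 1973 at E2.5 and 1134 at E3.5, or 578 and 332 per kb. Prpf19, on chr19:10895231-10909559, plus strand, with 16 exons, had a mean of 166 at E2.5 and 165 at E3.5, or 26.7 and 26.5 per kb, at percentiles 56.4 and 51.9. Its RefSeq model ends in an exon of 4525 nt that held 6.31 per kb at E2.5 and 11.1 at E3.5, while its other exons held 207 and 86.3. That 1 exon makes up 72.8% of the exon length, so the level per kb of Prpf19 is mostly set by a stretch with little signal. It remained the lowest of the 9 when the terminal exons were left out.

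Prpf38b lies on chr3:108902807-108911704, minus strand, with 6 exons, and had means of 963 at E2.5 and 1634 at E3.5, or 321 and 544 per kb. Prpf39, on chr12:65036334-65063386, plus strand, with 14 exons, had the second lowest level, with means of 752 and 474, or 185 and 116 per kb. Its percentile was 76.8 at E2.5 and 67.7 at E3.5. Among the 9 genes, then, per kb means stood higher at E3.5 than at E2.5 for Prpf4, Prpf8 and Prpf38b, lower for Prpf3, Prpf6, Prpf18, Prpf31 and Prpf39, and nearly equal for Prpf19. These directions depend on the measure. In summed exon means 7 of the 9 stood lower at E3.5, Prpf4 among them with 362 and 276 per kb. Without terminal exons all 9 did, with 918 and 336 for Prpf4, 997 and 960 for Prpf8 and 1034 and 845 for Prpf38b. How many of all genes stood lower on either scale was not counted. The median share of the terminal exon in the exon sum, over multi-exon genes with a Salmon mean of at least 100, was 21.9% at E2.5 and 38.6% at E3.5.

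**Figure D1:**
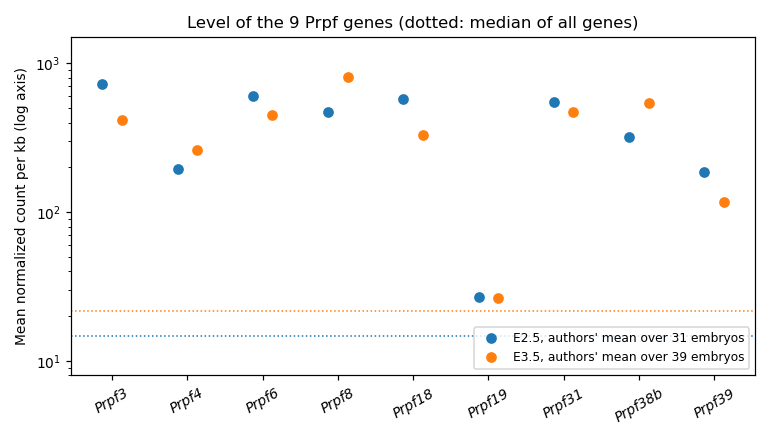
Salmon mean per kb of exon (y axis, log scale, normalized counts) of each of the 9 genes (x axis) at E2.5 and E3.5, each point being the authors' mean over all embryos of the stage, with no error available. Dotted lines mark the median of all genes, 14.7 at E2.5 and 21.6 at E3.5, and Prpf19 lies just above them while the other 8 genes lie between 116 and 811.

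The summed exon means gave a second estimate of each level. They exceeded the Salmon mean in all 9 genes, with a median ratio of 2.28 at E2.5 and 1.42 at E3.5, and the same ratio over all genes with a Salmon mean of at least 100 was 1.82 and 1.21. Prpf39 had the highest ratio of the 9 at both stages, 2.58 at E2.5 and 3.76 at E3.5. Its terminal exon of 1963 nt overlaps Fkbp3, a gene of the opposite strand with Salmon means of 1484 and 3244, and the libraries keep no strand. That exon held 26.5% of the exon sum of Prpf39 at E2.5 and 64.2% at E3.5. Reads of Prpf39 and Fkbp3 in this exon cannot be told apart. Without it, Prpf39 had 676 per kb at E2.5 and 303 at E3.5. The share of the terminal exon rose in every member, in Prpf4, whose exons overlap no other gene, from 29.1% to 65.9%. Its median over multi-exon genes with a Salmon mean of at least 100 was 21.9% at E2.5 and 38.6% at E3.5.

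Prpf31 has the other overlap, with exons 7 and 14 lying over Gm15927, an antisense gene. Exon 7 held 1820 per kb at E2.5 and 520 at E3.5, less than both its neighbours, and exon 14 held 365 and 391. No other exon of the 9 genes overlaps an annotated exon of another gene.

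Signal along the exons differed widely between members. For each gene with at least 10 exons and a Salmon mean of at least 100, the internal exons were split in 3 parts of like number from the 5′ end, and the median density of the last part was divided by that of the first, a measure chosen after the values were seen. Over 3821 genes at E2.5 and 4341 genes at E3.5 the median of this ratio was 1.17 and 2.09. Prpf8 stood near the upper end, with 5.16 at E2.5 and 10.3 at E3.5, at percentiles 95.4 and 92.7. Prpf39 and Prpf19 stood near the lower end, with 0.181 and 0.359 for Prpf39, at percentiles 2.93 and 7.92, and 0.24 and 0.347 for Prpf19, at percentiles 4.45 and 7.67. Prpf38b has too few exons for this ratio.

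In Prpf8 the internal exons did not rise evenly. At E3.5 the density was 279 per kb in exon 2, reached its lowest value of 54.0 in exon 20 and rose to 7747 in exon 41. At E2.5 the same exons held 519, 372 and 3755 per kb, so that the dip in the middle of the gene was shallower. Exons 32 to 38 differed by at most 1.21-fold between the stages, and all 31 exons before them had lower values at E3.5 than at E2.5. Prpf6 had a similar trough at E3.5: exon 2 held 1012 per kb, exon 5 held 166 and exon 20 held 2445, against 1694, 961 and 2156 at E2.5. Prpf3 rose from 234 per kb in exon 6 to 2072 in exon 15 at E3.5, while at E2.5 these exons held 1828 and 3044. The ratios of the last to the first part at E3.5 were 4.76 in Prpf6 and 3.41 in Prpf3. These stood at percentiles 79.4 and 68.6, so they were less extreme than that of Prpf8.

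Prpf39 ran the other way and was uneven. At E2.5 exon 3 held 1308 per kb and exon 13 held 117. At E3.5 exon 9 held 1369 per kb, exon 5 held 47.9 and exon 11 held 12.6. Internal exons of 1 transcript model thus differed 109-fold, but the means of exons 5 and 11 were only 8.04 and 2.33. Exon 9 was the only internal exon of Prpf39 with a higher value at E3.5 than at E2.5, where it held 1241. Prpf18 was flat at E2.5, with internal exons between 2022 and 3137 per kb, and its exons 7 to 9 stood below exons 2 to 6 at E3.5. Transcript models other than the one chosen were not compared.

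**Figure D2:**
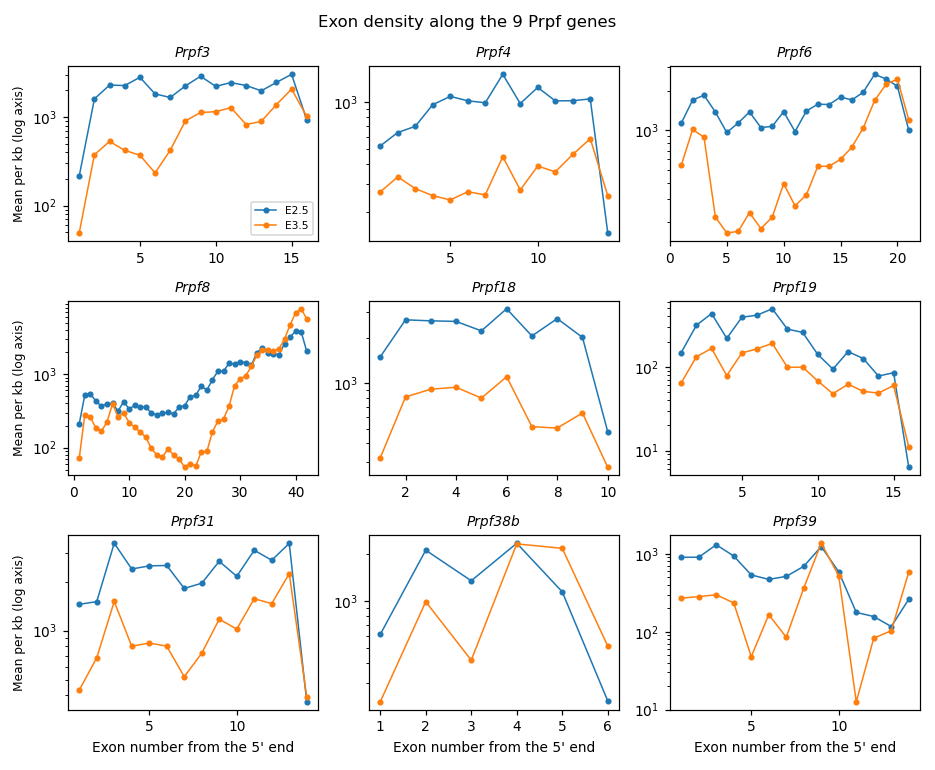
Mean normalized count per kb (y axes, log scale) of every exon of the 9 genes against the exon number from the 5′ end (x axes), at E2.5 and E3.5, each point being the authors' mean over all embryos of the stage. Prpf8 rises to exons 40 and 41 at both stages, Prpf39 peaks at exon 9 at E3.5, and the terminal exon of Prpf19 drops to 6.31 and 11.1 per kb.

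Because METTL16 methylates U6, the intron signal of these splicing genes was examined next. For each intron the density was divided by that over all exons of its gene, and a ratio of at least 0.1 was used as the limit. At E2.5, 2 of the 144 introns reached it, 1.39%, against a background of 2.91% over the 64142 introns of genes within the members' range of means. At E3.5, 3 introns did, 2.08%, against a background of 5.87% over 84043 introns. The members' shares thus lay below the background at both stages, but they rest on 2 and 3 introns, and the difference was not tested. The median ratio of the members was 0.00291 at E2.5 and 0.00562 at E3.5, beside 0.00485 and 0.00903 for all those introns. Member introns were shorter, with a median of 532 nt beside 1263 nt and 1314 nt.

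Both introns over the limit at E2.5 belong to Prpf39. Intron 3, on chr12:65043358-65044005, had a mean of 95.0 and a ratio of 0.308 at E2.5, and a mean of 23.7 and a ratio of 0.0833 at E3.5. Intron 8, on chr12:65055321-65055637, had means of 43.2 and 37.2 and ratios of 0.286 and 0.268. Against their own flanking exons rather than all exons, the ratios of intron 3 were 0.131 at E2.5 and 0.137 at E3.5, and those of intron 8 were 0.141 and 0.135. The density of intron 3 went from 147 to 36.5 per kb between the stages while those of exons 3 and 4 went from 1308 and 937 to 298 and 234. Relative to the exons beside them, both introns therefore held nearly the same signal at both stages.

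Neither intron is free of annotated exons. GENCODE places exons of 69 nt on chr12:65043543-65043611 and of 163 nt on chr12:65043715-65043877 inside intron 3, the latter also with an inner start at 65043768, and an exon of 100 nt on chr12:65055434-65055533 inside intron 8. The exons of 69 and 100 nt belong only to transcripts classed as nonsense-mediated decay or retained intron, and that of 163 nt also occurs in a transcript classed as protein coding. The splice sites printed above show that all have the usual GT and AG, and that the 5′ site of intron 3 itself departs from the common form after the GT. An exon inside an intron adds reads to that intron, and a spliced exon and a retained intron cannot be told apart in these sums. Over the 9 genes, 9 introns hold such an exon, 6.25% of 144, beside 7.68% of the background introns at E2.5 and 7.79% at E3.5. The other 7 of them, which include 2 of Prpf38b, stayed under the limit at both stages.

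**Figure D3:**
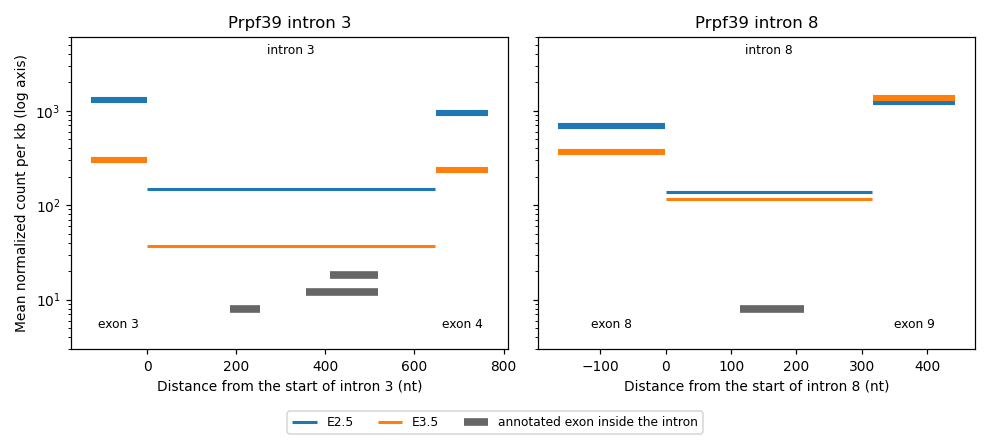
Mean normalized count per kb (y axis, log scale) of introns 3 and 8 of Prpf39 and of the exons on both sides, drawn to scale against the distance in nt from the first base of the intron, at E2.5 and E3.5. Grey bars mark annotated exons inside the introns at arbitrary heights, and in both introns the line of the intron lies below both flanking exons at both stages.

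The other introns over the limit had few reads. Prpf4 intron 11, of 114 nt on chr4:62422301-62422414, had a mean of 2.81 at E2.5 and 4.69 at E3.5, with ratios of 0.0681 and 0.149. Prpf19 intron 7, of 107 nt, reached 0.107 at E3.5 with a mean of only 0.362, against the low exon density of that gene, and intron 4 of Prpf19 stood just under the limit at E2.5 with 0.0933. An exon of a Prpf4 transcript classed as processed covers the whole of intron 11. An exon of a retained intron transcript overlaps part of Prpf19 intron 7. Every intron over the limit thus overlaps an annotated exon of its own gene. Of the 144 member introns, 96 were at least 100 nt long and free of any annotated exon. How often introns under the limit overlap an exon in this way was not counted, so the overlap may not set these introns apart. Of the remaining genes, Prpf31 came nearest, with 0.0497 at E2.5 and 0.0743 at E3.5 in intron 2 and 0.0313 and 0.0758 in intron 3, the latter of which overlaps Gm15927. The median ratio per gene at E2.5 ranged from 0.000928 in Prpf6 to 0.016 in Prpf38b, and at E3.5 from 0.00331 in Prpf18 to 0.0169 in Prpf19. The 41 introns of Prpf8, with a median length of 160 nt, had medians of 0.00171 and 0.0034.

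**Figure D4:**
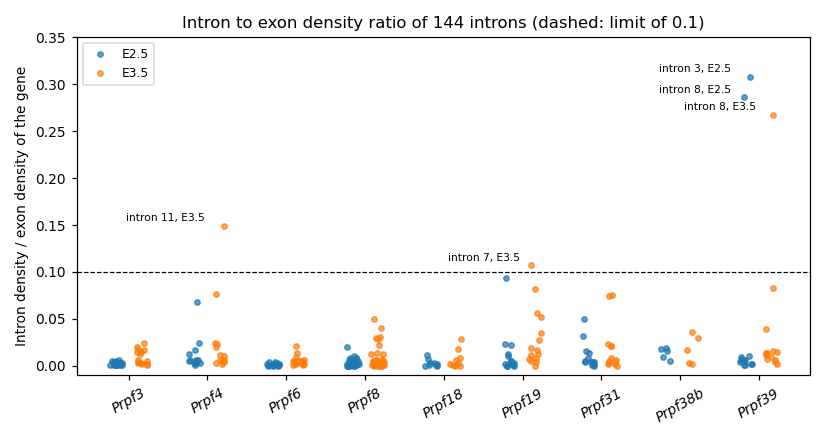
Ratio of intron density to the exon density of the gene (y axis, linear) for the 144 introns of the 9 genes (x axis) at E2.5 and E3.5, 1 point per intron with sideways scatter for sight only. Only introns 3 and 8 of Prpf39 at E2.5 and introns of Prpf39, Prpf4 and Prpf19 at E3.5 lie above the dashed limit of 0.1.

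The 5′ splice sites of the 9 genes began with GT in 99.3% of introns, beside 99.0% of all introns listed. Beyond this and the fourth intron base, the sites were not compared. The methylated adenosine of U6 faces the fourth base of the intron, which is A in 100 of the 144 member introns (69.4%) and in 70.3% of the 187662 introns. In the member introns with A there, the median ratio was 0.00273 at E2.5 and 0.00559 at E3.5, and in the other 44 it was 0.00311 and 0.00567. At the limit of 0.1, 1 intron with A and 1 without reached it at E2.5, and 3 with A and 0 of 44 without at E3.5. The intron without A was intron 3 of Prpf39. How many of all introns with and without A reached the limit was not counted. The values pool the 3 genotypes, so no effect of METTL16 loss can be read from this split.

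The nonamer of METTL16 targets was then located. It occurs at least once on the transcribed strand of 4 of the 9 genes (44.4%) and of 35.2% of the 24467 genes of the exon and intron tables, at 2.82 and 2.08 sites per 100 kb. Prpf8, Prpf19, Prpf31, Prpf38b and Prpf39 hold none in the spans searched. Of the 6 sites, 5 are intronic. Prpf3 site 1 lies in intron 1, on chr3:95854225-95854254, and Prpf4 site 1 in intron 10, on chr4:62420799-62420828. Prpf6 site 1 lies in intron 4, on chr2:181621134-181621163, and Prpf6 site 2 in intron 6, on chr2:181629963-181629992. Prpf18 site 1 lies in intron 9, on chr2:4625861-4625890. The introns that hold them had between 1.12 and 9.24 per kb over their full length in polyadenylated RNA. The signal at the sites themselves was not measured. Prpf3 site 2, chr3:95830897-95830926, lies in the coding part of the terminal exon, exon 16, which had 928 per kb at E2.5 and 1017 at E3.5. Genes with an exonic nonamer are 3.21% of all genes.

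The windows of Prpf4 and Prpf6 are nearly 1 sequence. Both sites of Prpf6 share 29 of 30 bases with each other, and the site of Prpf4 shares 28 and 29 with them. Exact copies of these windows are frequent in the genome, with 490 for Prpf4 site 1, 481 for Prpf6 site 1 and 16635 for Prpf6 site 2, while the windows of Prpf3 and Prpf18 occur once. The window of Prpf18 shares 21 or 22 bases with these 3. The sites of Prpf4 and Prpf6 are thus copies of a repeated sequence and not independent sites.

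Folded by RNAfold, the window of Prpf3 site 1 formed no pair. The window of Prpf3 site 2 folded with -2.2 kcal/mol into a short stem that leaves the nonamer unpaired in a loop. The windows of Prpf6, with -3.6 and -6.3 kcal/mol, took 1 shared structure, and those of Prpf18 and Prpf4 folded with -3.1 and -9.2 kcal/mol. In these 5 windows position 15 lies in a hairpin loop, and only in Prpf4 is a base of the nonamer paired, 1 of 9.

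The in vitro table sums the reads of all randomized RNAs with the same predicted fold, so the value found for a window is that of its fold and not of its sequence. For the fold of Prpf3 site 2 the normalized reads were 276 and 272 in the input libraries of reactions 11 and 12 and 559 and 451 in the m6A-IP libraries. Both m6A-IP values lie above both inputs. The difference was 0.86 ± 0.17 on the log2 scale of the value plus 5 (SE, 2 against 2 libraries), with an adjusted p of 0.0238 in limma's moderated test over all 36835 structures. Enriched structures were 12.5% of all.

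The folds of the intronic windows of Prpf18, Prpf6 and Prpf4 went the other way. That of Prpf18 site 1 fell from 4459 and 4575 in the inputs to 2749 and 2502 after m6A-IP, a difference of -0.78 ± 0.16 (limma adjusted p of 0.0243). The shared fold of the Prpf6 sites had inputs of 331 and 383 and m6A-IP values of 263 and 236, a difference of -0.51 ± 0.17 (limma adjusted p of 0.0701). That of Prpf4 site 1 had inputs of 47.2 and 42.7 and m6A-IP values of 13.8 and 27.7, a difference of -1.01 ± 0.33 (limma adjusted p of 0.0733). In these 3 folds both m6A-IP values lie below both inputs, and depleted structures were 27.2% of all. The unpaired fold of Prpf3 site 1, which took 12.6% of the input reads, had inputs of 1341250 and 1329814 and m6A-IP values of 1269075 and 988861, a difference of -0.25 ± 0.53 that did not pass (limma adjusted p of 0.736).

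The depth behind these calls was uneven. The m6A-IP library of reaction 12 had 1154715 reads against 18106811 to 22118622 in the others, and it gave 65 reads to the fold of Prpf3 site 2 and 4 to that of Prpf4 site 1. The median structure lay at -0.27 on the log2 scale with the authors' size factors and at -0.05 with library totals. Relative to the median, the folds of Prpf18, Prpf6 and Prpf4 were lower by less than the values above. The folds of Prpf4 and Prpf6 did not pass with library totals, with adjusted p values of 0.156 and 0.118 in limma, nor with DESeq2 on the reads, with 0.112 and 0.145, while edgeR on the reads called both. With the reaction as a block the fold of Prpf6 did not pass, with an adjusted p of 0.112 in limma. Without the input library of reaction 11 or of reaction 12 none of the 4 differences passed the threshold of 0.1, with adjusted p values for the fold of Prpf3 site 2 of 0.273 and 0.287 in limma. Nothing in the series measures methylation of these sites in embryos.

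**Figure D5:**
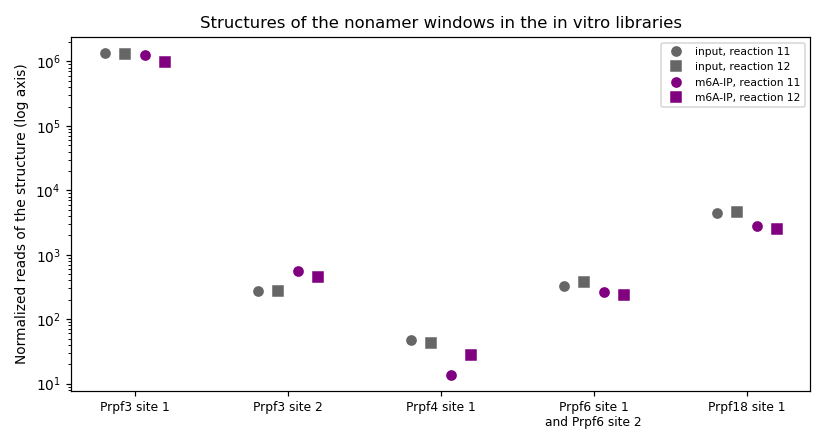
Normalized reads (y axis, log scale) in the 2 input and 2 m6A-IP libraries for the predicted folds of the nonamer windows (x axis), 1 point per library. Only for Prpf3 site 2 do both m6A-IP points, 559 and 451, lie above both input points, 276 and 272.

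Other proteins of the same particles give the levels a frame. Of the 14 other tri-snRNP proteins listed, 13 could be ranked per kb, and Snu13, which had no exon length here, had Salmon means of 16811 and 14973, the largest of the list. The 13 had a median percentile of 89.3 at E2.5 and 87.4 at E3.5, from Ddx23, a helicase that releases U1, at 66.8 per kb at E3.5 to Ppih, the cyclophilin bound to PRPF3 and PRPF4, at 2705 per kb. The 15 proteins of or near the PRPF19 complex had medians of 95.7 and 93.3, from Aqr at 232 per kb at E3.5 to the chaperone Hspa8 at 189853, so that Prpf19 at 26.5 per kb was below every gene of this list. The 11 U1 proteins had medians of 85.8 and 89.2, from Prpf40b at 33.5 per kb to Snrpa, a core protein of U1, at 2646. The 7 genes listed beside Prpf18 had medians of 82.4 and 79.8, from Dhx38 at 131 per kb to Dhx16 at 1025. Prpf18 at 332 per kb lay within them. This list was drawn up around the second step, but Dhx15, Dhx16 and Cwc22 act at other steps. Introns with a ratio of at least 0.1 numbered 2 of 176 at E2.5 and 6 of 176 at E3.5 in the first list, 0 and 0 of 176 in the second, 11 and 13 of 138 in the third and 0 and 3 of 130 in the fourth. In the third list 6 and 7 of these introns lie in Prpf40b, whose Salmon means of 14.8 and 106 are below those of the 9 genes.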

How the data were processed

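Single embryos were sequenced by the authors as unstranded, paired-end Smart-seq2 libraries. Per the labels and the methods of the study, reads were quantified on RefSeq transcripts of mm10 with Salmon 0.7.2 and summed to genes, or aligned with STAR and counted with featureCounts on single exons and introns, with 10 nt left out at both intron ends. The signal as deposited is the mean, over all embryos of a stage, of counts divided by size factors of DESeq2 1.18.1. The embryo tables also hold the authors' log2 fold changes and adjusted p-values between genotypes, and the in vitro table their fold change, error, test score and p-values; none of these was read. For the in vitro table the authors trimmed reads with cutadapt 1.9.1, kept those with the nonamer in place, folded them with RNAfold and deposited a signal, the reads per structure over DESeq2 size factors.

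The tables hold no value per embryo, so the edgeR fit planned for genotypes was not run. From the means were computed levels per kb of exon, percentiles, and intron densities, over the full intron length, relative to exon density with a limit of 0.1. Sequences came from GRCm38 (mm10) with GENCODE vM21 exons, and 99.3% of member introns began with GT. The genes matched by symbol. Windows were folded with RNAfold 2.7.2. The test of the in vitro table was limma 3.58.1 (R 4.3.3) with 5 added before taking log2, a mean-variance trend, Benjamini-Hochberg adjustment over 36835 structures and a threshold of 0.1. The step was first tested on simulated data. These had equal depth in all libraries and the spread of the 2 inputs, so the shallow m6A-IP library was not represented. Per the study's methods the reactions were duplicates and a part of each served as its input, so libraries with the same number were taken as pairs from 1 reaction, although their deviations from the group means correlated only with r = 0.015 over 36835 structures. The main test did not use this pairing, which entered only as the replicate block. Its p-values rest on the spread between 2 libraries in each group, moderated by a trend over all 36835 structures. In each library 100% of the values are whole multiples, within 0.01 reads, of the value of 1 read. This gave the depths, and edgeR 4.0.16 (quasi-likelihood) and DESeq2 1.42.0 were run on these reads with the authors' size factors as alternatives.

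The 9 genes, the companion lists and the tests were chosen with earlier results of these data known. Of the companion lists the genes with the highest and the lowest level at E3.5 are named, and of the introns those over the limit at either stage. Fkbp3, Gm15927 and the exons singled out along a gene were chosen after their values were seen. Alternatives tried were summed exon means, other backgrounds and scales, flanking exons, other limits and filters, other pseudocounts, library totals, a replicate block and each in vitro library left out. Python 3.11.15, numpy 2.4.6 and pandas 2.3.3 were used.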

Additional observations from a re-analysis of the deposited data

How the results depend on the processing

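Every member had a higher value in summed exon means per kb than in Salmon means. Their median became 1025 at E2.5 and 630 at E3.5, the same as without exons that overlap another gene, and 1034 and 675 without terminal exons, both of the latter chosen after seeing the data. When only genes averaging 10 or more were ranked, the median percentile was 77.0 and 72.7, and without division by length 89.1 and 85.1. With flanking exons as the denominator the median intron ratio was 0.00192 at E2.5 and 0.00774 at E3.5, and over the 96 introns of at least 100 nt without any annotated exon it was 0.00171 and 0.00501. The count of introns over the limit was 4 and 10 at a limit of 0.05, 1 at E3.5 at a limit of 0.2, 4 and 7 with a pseudocount of 0.5, and 1 of 28 at E3.5 with an intron mean of at least 10. In those 96 introns it was 0 at both stages, since all introns over the limit overlap annotated exons. The flanking denominator, added after seeing the data, gave 2 and 4, which included intron 2 of Prpf8. The background share of introns over the limit was counted only in the main setting. Whether these other counts lie above or below it cannot be told.

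In vitro, library totals moved the folds of Prpf4 to -0.80 and of Prpf6 to -0.28, both no longer past the threshold, and that of Prpf3 site 1 to -0.020, now past it. Leaving out each library in turn gave -0.43 to -0.074 for Prpf3 site 1, 0.71 to 1.02 for Prpf3 site 2, -1.41 to -0.61 for Prpf4, -0.61 to -0.41 for Prpf6 and -0.85 to -0.72 for Prpf18, with the lone library assumed to vary like the other group. The 4 called folds missed the threshold without either input library and passed without either m6A-IP library. On the recovered reads, edgeR's quasi-likelihood test gave -1.61 for Prpf4 and called the same 4 folds, and DESeq2 gave -1.40 for Prpf4 and -0.49 for Prpf6, both no longer past the threshold (adjusted p of 0.112 and 0.145). Enriched and depleted structures numbered 4621 and 10036 in limma, 8302 and 9131 with library totals, 10103 and 14736 in edgeR and 2757 and 5554 in DESeq2, which left 5714 without an adjusted p, and 855 to 11188 and 1994 to 20642 with a library left out. No direction of the 5 folds tested was reversed by any of these settings or pseudocounts. The filter on a mean of at least 10 removed no structure, since the lowest mean listed is 16.8. With the reaction as a replicate block the fold of Prpf6 stayed at -0.51 and missed the threshold (limma adjusted p of 0.112), and no other call changed. The alternatives for genotypes were not run, since the embryo values used here are stage means. The depth of the m6A-IP library of reaction 12 limits all in vitro values, and the missing spread between embryos limits all others.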

Other observations

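Among the U1 proteins near Prpf39, chosen after their values were seen, the introns with the highest ratios outside Prpf40b were intron 10 of Luc7l3, of 105 nt, with 0.506 at E2.5 and 1.12 at E3.5, and intron 9 of Luc7l, of 1496 nt, with 0.368 and 0.742. Their means were 58.9 and 159 for Luc7l3 and 1008 and 862 for Luc7l. Both encode homologs of a yeast U1 protein, as does Luc7l2, whose introns 1 and 2 had 0.155 and 0.182 at E2.5. Beside them, intron 8 of Prpf39 had 0.286 and 0.268.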
